A study of Mus musculus with 6 samples.

Results

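Mitochondrial ribosomal protein genes encode the proteins of the ribosome inside mitochondria, and were taken here as the genes whose symbol begins with Mrpl (large subunit) or Mrps (small subunit). Of 18193 genes with at least 1 probe set of their own on the array, 76 met this rule, 47 with a large subunit name and 29 with a small subunit name. Each gene was followed through its brightest probe set, and all 76 passed the filter on dim probe sets, so no member was left out of the test. Mrpl30 and Mrpl53 were on the array through probe sets shared with another gene and are given apart.

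The cells were C2C12, a mouse myoblast line that can fuse into muscle fibres, engineered to express integrin alpha7 on addition of tetracycline. All samples carried this construct and were kept undifferentiated for 36 h in DMEM with 20% FBS, chick embryo extract, glutamine, penicillin, streptomycin and kanamycin. Of the 6 samples, 3 had no tetracycline (noninduced) and 3 had 1 µg/ml (labelled induced), with 1 Affymetrix Mouse 430 2.0 array each and biological triplicates per condition according to the series. The study asked what more integrin alpha7 does to transcription in myoblasts. The labels do not say whether the line is 1 clone, and cells without the construct given tetracycline were not analysed here, so an effect of tetracycline itself cannot be told apart from that of the construct.

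The signal of Itga7, the gene to be induced, was lower in the samples labelled induced (675, 727 and 676) than in the noninduced samples (811, 778 and 786). The log2 fold change was -0.19 with a limma adjusted p of 0.181. Whether the construct holds the sequence this probe set reads is not stated, and each direction below rests on the labels. Fluidics runs were inferred here from the clock times of hybridisation, without the dates. The first run held the noninduced arrays and induced replicate 1, and the second run held induced replicates 2 and 3. All arrays of the second run were thus labelled induced, so run and group are partly mixed. The order of scanning was not checked here, so whether it follows the groups is not known. The deposited linear signal was scaled to the same level on each array, and the median signal of an array ranged from 24.99 to 27.7 (noninduced) and from 22.9 to 24.9 (labelled induced). The 3′ to 5′ signal ratio of Gapdh was 0.793 ± 0.0077 against 0.773 ± 0.011 and that of Actb 1.103 ± 0.0045 against 1.13 ± 0.015 (SD, n = 3 each). Myoblast markers were present: 7 of 9 on the array lay above the filter, among them Myod1 and Des, with summed signals of 7334 to 7404 against 6970 to 7269, while Pax7 and Msc lay below it. Summed signals were 542 to 685 against 577 to 677 for 13 myotube markers, 532 to 559 against 410 to 458 for 8 fibroblast markers, 213 to 249 against 201 to 231 for 6 adipocyte markers, 161 to 204 against 133 to 164 for 7 macrophage markers and 64.8 to 98.9 against 71.4 to 76.0 for 6 endothelial markers. The fibroblast sum came mostly from Twist2, the 1 marker that passed (log2 -0.44, limma adjusted p = 0.023, lower without overlap). Pdgfra, the other fibroblast marker tested, was at 0.56 and higher without overlap (limma adjusted p = 0.195), and Dpt, Dcn, Lum, Adipoq, Ptprc and Pecam1 were below the filter. Above it lay 6 of 13 myotube, 2 of 6 adipocyte, 3 of 7 macrophage and 1 of 6 endothelial markers, none of which passed. Among these were Acta1, Pparg, Csf1r and Kdr, with mean signals of 159, 124, 78.4 and 23.0 (noninduced) against 192, 133, 63.4 and 27.0. The part of array quality and of these markers in the results was not tested.

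The mitochondrial ribosome is built from ribosomal RNAs encoded in mitochondrial DNA and from proteins encoded in the nucleus, made in the cytosol and imported. It translates the few mRNAs of mitochondrial DNA, which encode core subunits of the respiratory chain and of ATP synthase. Some of its proteins descend from those of bacterial ribosomes, and the others are particular to mitochondria.

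No mitochondrial ribosomal protein gene passed the test over all genes. Of the 76 genes, 0 had an adjusted p under 0.05 in limma, against 0.306% of all 10775 genes tested, and the smallest adjusted p was 0.137. All log2 fold changes but that of Mrpl33 lay between -0.30 and 0.18. For 75 of the 76 genes the whole 95% interval lay within 1.5-fold, against 9197 of all 10775 genes tested. The members were also brighter, with a median signal of 725 against 216 over all genes tested. In the samples labelled induced 3 genes were higher at an unadjusted p under 0.05 (3.95% of the members, against 7.96% of all genes) and 9 were lower (11.8%, against 7.99%). The shares of both kinds were thus near the background or a few percentage points from it.

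More of these genes lay on the lower side than on the higher side, by small amounts. The log2 fold change was negative in 52 of 76 genes (68.4%) and in 52.2% of all genes tested. The median was -0.039 over the members and -0.0090 over all genes tested. For 16 members every sample labelled induced lay below every noninduced sample (21.1%, against 11.6% of all genes), and for 5 every one lay above (6.58%, against 10.7%). The direction turned with median centring but not with quantile normalization, which gives all arrays the same distribution of signals. With each array centred on its own median 22 of 76 genes were negative, and the median of all genes moved from -0.0090 to 0.084. After quantile normalization 53 were negative, with medians of -0.048 (large subunit) and -0.042 (small subunit). Centring shifts every gene of an array alike, so it leaves the difference between members and all genes as it was by construction. The median minus that of all genes was -0.030 for the large and -0.022 for the small subunit. It was -0.012 and -0.0040 without the filter on dim probe sets, and -0.041 and -0.033 with the filter at the 75th percentile. With the fluidics run as a block it was -0.056 and -0.040. For the large subunit it was -0.064 without noninduced replicate 2. For the small subunit it was -0.0033 without induced replicate 2 and 0.0045 without noninduced replicate 1, where the direction turned. In the first fluidics run, in which induced replicate 1 is the only treated array, the members' median was -0.054.

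**Figure D1:**
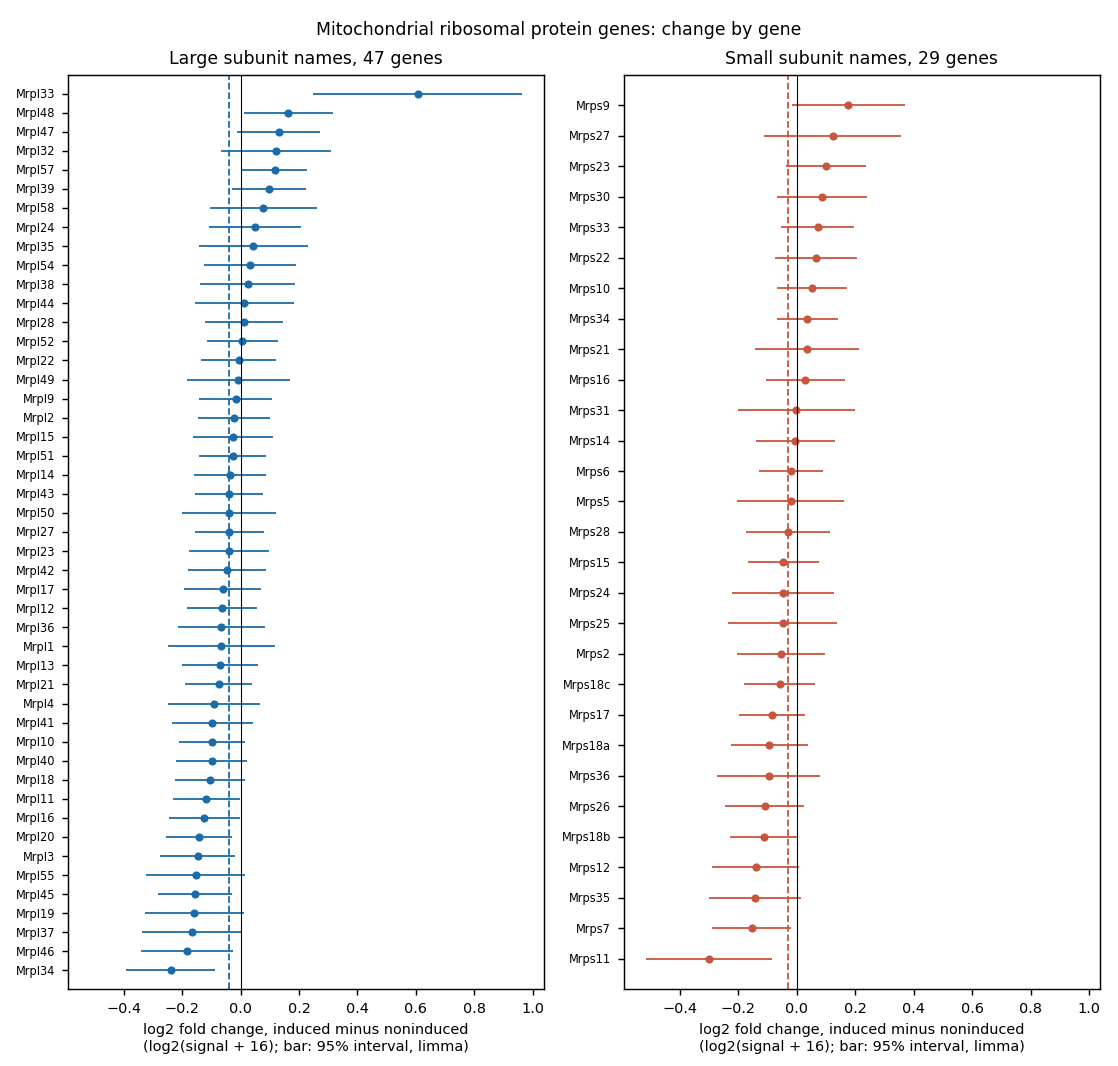
Log2 fold change (labelled induced minus noninduced, on the log2(signal + 16) scale) of each mitochondrial ribosomal protein gene, with its 95% interval from limma; dashed lines are the medians of the 47 large subunit genes (left) and 29 small subunit genes (right). All points except Mrpl33 lie between -0.30 and 0.18, and 12 of 76 intervals exclude 0 before adjustment, as do 1719 of 10775 over all genes tested.

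Large and small subunit genes both had a median slightly below 0. It was -0.039 over the 47 large subunit genes, of which 33 were negative, and -0.031 over the 29 small subunit genes, of which 19 were negative. The difference of these medians, large minus small, was -0.0079, but -0.030 without noninduced replicate 1, -0.032 without noninduced replicate 2, -0.028 without induced replicate 2 and -0.016 with the fluidics run as a block. At an unadjusted p under 0.05, 3 large subunit genes were higher (6.38%, against 7.96% of all genes) and 7 lower (14.9%, against 7.99%), and 0 small subunit genes were higher and 2 lower (6.90%). Names and places in the ribosome differ for a few genes: Mrps18a and Mrps30 belong to the large subunit, and Mrps36 is now known as a part of the oxoglutarate dehydrogenase complex. With Mrps18a and Mrps30 moved and Mrps36 left out, the medians were -0.039 over 49 genes and -0.025 over 26.

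The median of each array shows how far single arrays move the result. Relative to the mean of the noninduced arrays, the large subunit median was 0.038, -0.026 and 0.00016 in noninduced replicates 1, 2 and 3 and -0.060, -0.052 and -0.033 in induced replicates 1, 2 and 3. The small subunit median was 0.022, -0.034 and 0.0046, and then -0.044, -0.035 and 0.0075. With the deposited scaling the large subunit medians of the groups did not overlap, whereas those of the small subunit did, since induced replicate 3 lay above noninduced replicates 2 and 3. After centring on the array median both overlapped. The difference of these array medians, large minus small, was 0.0067 ± 0.010 in noninduced samples and -0.024 ± 0.014 in those labelled induced (SD, n = 3 each), without overlap. The -0.0079 given above is another measure, the difference of median fold changes over genes. It is smaller in size than the gap between these group means, so the size of the subunit difference depends on the measure. The ratio of summed large to summed small subunit signal, 2.02 ± 0.016 against 2.02 ± 0.019, did not separate the groups.

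**Figure D2:**
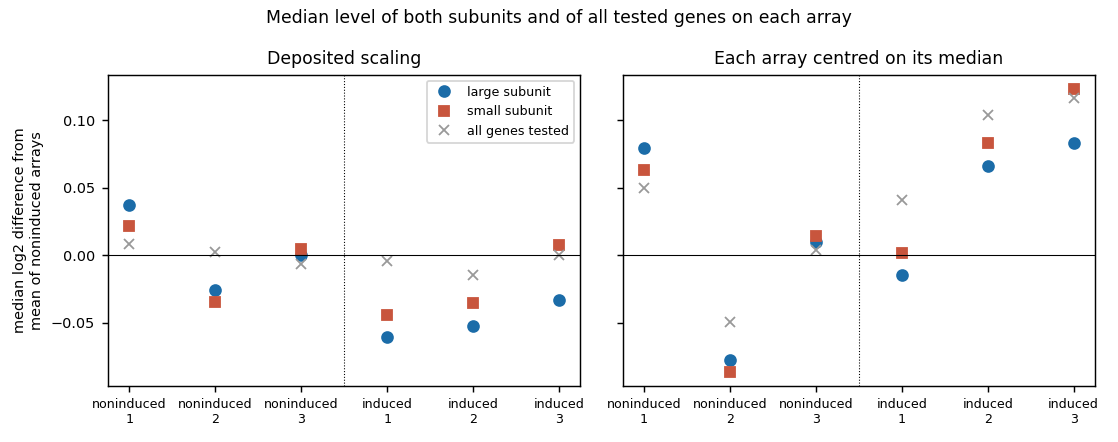
Median log2 difference from the mean of the noninduced arrays, on each array, for large subunit genes (circles), small subunit genes (squares) and all genes tested (crosses), with the deposited scaling (left) and with each array centred on its median (right). With the deposited scaling the large subunit lies between -0.060 and -0.033 on the arrays labelled induced, and centring puts induced replicates 2 and 3 above 0 for all 3 sets.

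Proteins with bacterial relatives and those particular to mitochondria were also set side by side. Of the 29 large subunit genes with bacterial relatives 23 were negative (median -0.064); 8 were lower without overlap (27.6%, against 11.6% of all genes) and 0 higher. Of the 18 large subunit genes particular to mitochondria 10 were negative (median -0.017); 4 were lower without overlap (22.2%) and 2 higher (11.1%, against 10.7% of all genes). In the small subunit 12 of 16 genes with bacterial relatives were negative (median -0.038), and 5 of 10 particular to mitochondria (median 0.018). The difference between these classes was not tested, and centring on the array median raises each gene by the same amount.

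Mrpl33, related to bacterial ribosomal protein L33, showed the largest difference of the family. Its signal was 600.3, 497 and 482 in noninduced replicates 1, 2 and 3 and 867, 1044 and 577 in induced replicates 1, 2 and 3. Induced replicates 1 and 2 stood above every other array, while induced replicate 3 lay within the noninduced range, so the groups overlapped. The difference was 1.52-fold, or 0.61 on the log2 scale (SE 0.164, 95% interval 0.25 to 0.96), with a limma adjusted p of 0.137. Without induced replicate 3 it was 0.84 (limma adjusted p = 0.0163) and after median centring 0.70 (limma adjusted p = 0.0468); under the other alternatives the adjusted p ranged from 0.106 to 0.474. A second probe set of this gene, with mean signals of 22.6 and 22.4, lay below the filter.

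Mrpl34, related to bacterial L34, had the lowest log2 fold change of the large subunit. Its signal was 687, 695 and 619 in the noninduced samples against 542, 599 and 546, with no overlap. The log2 fold change was -0.24 (SE 0.0693, limma adjusted p = 0.158), and that of its dim second probe set was -0.64. Other short proteins related to bacterial L32 to L36 lay on both sides of 0, with Mrpl32 at 0.12, Mrpl35 at 0.04 and Mrpl36 at -0.07, and did not pass the test.

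Mrpl33 and Mrpl34, which differed in opposite directions, both have the letters CCGGAAG, a core bound by ETS-family factors such as GABP, near the start of transcription. Their sequences from 100 bases before to 10 bases after the start (RefSeq, GRCm38.p6, plus strand) are shown because these genes lie at the ends of the large subunit's range, with the motif in capitals.
Mrpl33 (chr5:31613851-31613960): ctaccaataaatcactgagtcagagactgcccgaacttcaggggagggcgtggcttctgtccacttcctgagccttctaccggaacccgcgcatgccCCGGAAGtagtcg
Mrpl34 (chr8:71464826-71464935): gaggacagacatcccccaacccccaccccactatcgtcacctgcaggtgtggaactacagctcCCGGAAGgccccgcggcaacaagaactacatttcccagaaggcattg
In Mrpl33 the motif begins 3 bases before the start and runs across it, and in Mrpl34 it begins 37 bases before.

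Genes of the decoding site and the mRNA path of the small subunit were all 5 on the lower side by their brightest probe sets, and none passed. This grouping by role, and those below, was made after the values were seen. Of the 16 small subunit genes with bacterial relatives 4 were positive, and all 4 lie outside the grouping. Among them were Mrps9 (0.18) and Mrps10 (0.05). Mrps11, related to bacterial S11 near the mRNA exit, had the lowest value of the family, with signals of 455, 369.9 and 385 (noninduced) against 293, 313 and 367. The groups did not overlap, but induced replicate 3 came close to noninduced replicate 2. The log2 fold change was -0.30 (SE 0.0988, limma adjusted p = 0.202), and -0.43 in the first run. Mrps7, related to the bacterial protein that organises the head of the small subunit, had signals of 687 ± 19.5 against 616 ± 31.8 (SD, n = 3 each), without overlap (log2 -0.15, limma adjusted p = 0.285). Mrps12, a protein of the decoding centre, had signals of 671, 672 and 628 against 550.4, 602 and 634. Its groups overlapped, with induced replicate 3 at the noninduced level (log2 -0.14). Mrps24 (-0.05) and Mrps5 (-0.02), related to bacterial S3 and S5 at the mRNA entrance, were closer to 0. Each of these genes had tested probe sets of both signs.

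Mrps11 and Mrpl46 share a start region, and both were lower without overlap. They are transcribed away from each other from starts 42 bases apart. Mrpl46, a large subunit protein particular to mitochondria, had signals of 353, 365 and 332 (noninduced) against 313, 303 and 304. Its log2 fold change was -0.18 (SE 0.0719, limma adjusted p = 0.272), so neither gene passed. The pair was singled out after its values were seen. The bases between the starts, with 10 bases of each transcript, are shown in the direction of Mrps11 (RefSeq, GRCm38.p6, plus strand), since both genes share them.
Mrpl46-Mrps11 (chr7:78783079-78783140): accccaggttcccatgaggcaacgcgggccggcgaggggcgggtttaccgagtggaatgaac
None of the motifs searched lies in these 62 bases. Farther out, the letters AAGATGGCG, a YY1 motif, lie on the opposite strand with the first base 108 bases before the start of Mrps11. That site lies past the start of Mrpl46, on the side that Mrpl46 transcribes, and outside the window searched for Mrpl46.

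Such head-to-head starts were more frequent in the family than among all genes. Of 67 members with a promoter in the RefSeq table, 25 (37.3%) had a start on the other strand within 1000 bases upstream, against 12.2% of all 27025 genes. None of the partners tested passed over all genes. Sars2, the mitochondrial seryl-tRNA synthetase gene opposite Mrps12, was at -0.25, with Mrps12 itself at -0.14. Ndufb5, a complex I subunit gene opposite Mrpl47, was at 0.04, and Psma2, a proteasome subunit gene opposite Mrpl32, at -0.05. Twnk, the mitochondrial helicase gene opposite Mrpl43, was at -0.02, with Mrpl43 at -0.04.

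Motifs of factors known for nuclear genes of mitochondria were searched as exact letters on both strands, from 250 bases before to 50 after the start. The ETS motif CCGGAAG was in 25 of 67 members (37.3%) and 9.93% of all genes. The NRF1 palindrome with any base allowed at 1 position was in 12 members (17.9%, against 5.19%), and its fixed form, which the looser form includes, in 3, Mrpl9, Mrpl32 and Mrpl39 (4.48%, against 1.07%). The YY1 motif AAGATGGCG was in 8 members (11.9%, against 1.64%), and the E-box CACGTG in 5 (7.46%, against 8.09%). Member promoters also held more G and C (median 58.3% against 52.7%) and more CpG pairs (median 21 against 7); the part of base composition in the motif shares was not tested. Members with and without the ETS motif had median log2 fold changes of -0.027 and -0.046.

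Proteins of the stalk, which recruits translation factors, were slightly lower in all 3 genes, and none passed. The grouping was made after the values were seen, and its genes belong to a class in which 23 of 29 were negative (large subunit, bacterial relatives). Mrpl11 had signals of 1219.7, 1298 and 1250.3 (noninduced) against 1119.8, 1161 and 1191. Mrpl10 had 983, 969.998 and 999 against 899, 926 and 933. Neither overlapped between the groups, with log2 fold changes of -0.12 and -0.10 and limma adjusted p of 0.330 and 0.415. Another probe set of Mrpl11, with mean signals of 1063 and 1054, was at -0.02 and overlapped between the groups. Mrpl12, the stalk protein that has also been linked to the mitochondrial RNA polymerase, had 2071, 1842 and 2046 against 1839.7, 1906 and 1944. Its groups overlapped through noninduced replicate 2, and its log2 fold change was -0.06, or 0.03 after median centring.

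Genes near the peptidyl transferase centre, where peptide bonds form, were negative in all 5 cases by their brightest probe sets, and none passed. This grouping was also made after the values were seen. Of the 29 large subunit genes with bacterial relatives, which include these, 23 were negative. Mrpl3 had signals of 713, 738 and 754 (noninduced) against 637, 662 and 688, with no overlap (log2 -0.15, SE 0.0591, limma adjusted p = 0.282). Another probe set of Mrpl3, with mean signals of 499 and 521, was at 0.06 and overlapped between the groups. Mrpl16 had 1187 ± 55.1 against 1088 ± 37.4 (SD, n = 3 each; log2 -0.12), also without overlap. Mrpl4 (-0.09), Mrpl27 (-0.04) and Mrpl2 (-0.02) overlapped between the groups. Mrpl20, related to bacterial L20 of large subunit assembly, had 1536, 1456 and 1457 against 1302, 1334 and 1391. The replicates lay close together and the groups apart, at -0.14 on the log2 scale (SE 0.0512, limma adjusted p = 0.235).

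Around the exit of the polypeptide tunnel 4 of 8 genes were positive and 4 negative, and none passed. Mrpl45, which anchors the ribosome at the inner membrane, had signals of 1224, 1254 and 1355 (noninduced) against 1147, 1093 and 1192, without overlap (log2 -0.16, SE 0.058, limma adjusted p = 0.247). Mrpl47, related to bacterial L29, had 665, 681 and 703 against 692, 772 and 786. Induced replicate 1 lay within the noninduced range there, and the log2 fold change was 0.13, or 0.02 in the first run and -0.01 with the mean of its probe sets. Mrpl39 was at 0.10, with another probe set (mean signals 704 and 659) at -0.09. Mrpl24 was at 0.05, Mrpl44 at 0.01, Mrpl22 at -0.01, Mrpl23 at -0.04 and Mrpl17 at -0.06.

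The 5 genes that were higher without overlap (6.58% of the members, against 10.7% of all genes) are particular to mitochondria. In that class 4 of 18 large and 2 of 10 small subunit genes were lower without overlap (22.2% and 20%, against 11.6% of all genes). Mrpl48 had signals of 369, 376 and 405 (noninduced) against 418, 450.02 and 424 (log2 0.16, SE 0.0699, limma adjusted p = 0.310). Mrpl57 had 1215, 1136 and 1171 against 1303, 1248 and 1269.8 (log2 0.12, limma adjusted p = 0.324). Mrps23 (0.10), Mrps33 (0.07) and Mrps34 (0.04) differed less, and none of the 5 passed. Among genes whose groups overlapped, Mrps9 had the highest value of the small subunit (0.18, or -0.04 with the mean of its probe sets), followed by Mrps27 (0.12). On the lower side Mrpl37 (-0.17), Mrpl19 (-0.16) and Mrpl55 (-0.15) overlapped between the groups, while Mrps35 (-0.14) did not. For Mrpl19 another probe set, with mean signals of 306 and 328, was at 0.10.

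**Figure D3:**
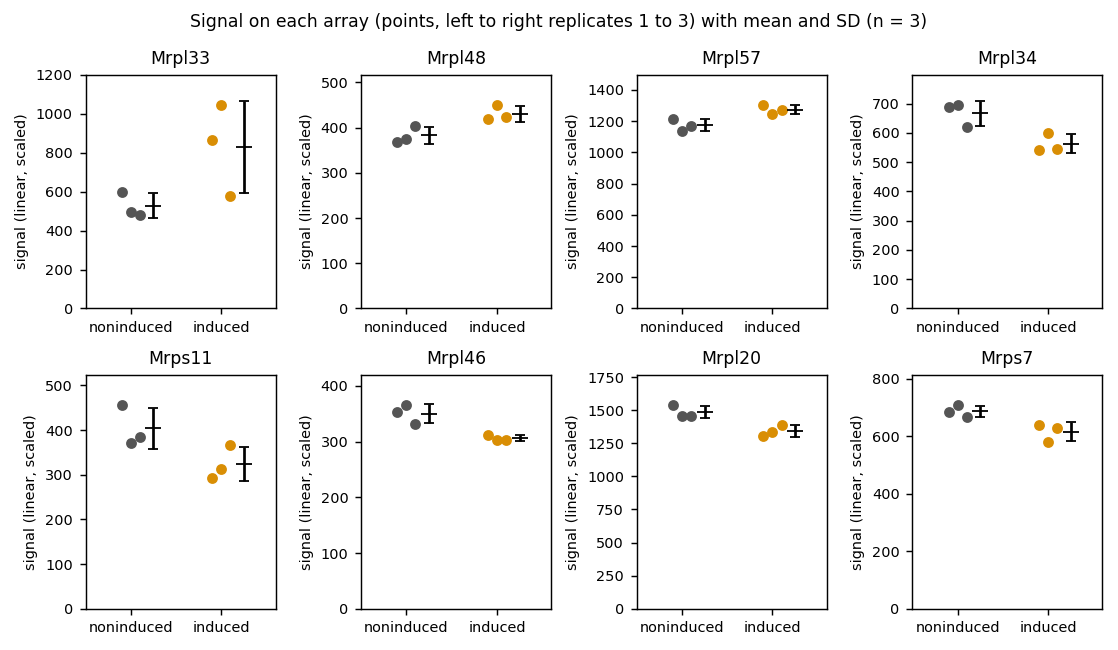
Linear scaled signal of 8 mitochondrial ribosomal protein genes on each array (points), with mean and SD (n = 3), noninduced in grey and labelled induced in orange; each axis starts at 0. Mrpl33 spreads from 577 to 1044 in the samples labelled induced and overlaps between the groups, while the groups of the other genes drawn do not overlap.

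The relatives of bacterial S18 and the brightest genes showed small differences. Mrps18b was at -0.11 with groups apart, Mrps18a at -0.09 and Mrps18c at -0.06, the last at 0.03 after median centring. The probe set of Mrpl13 had a signal of 2307 ± 111 against 2200 ± 162 (SD, n = 3 each; log2 -0.07, or 0.02 after median centring), and that of Mrpl42 had 2107 ± 127 against 2040.3 ± 136 (log2 -0.05, or 0.05 after median centring). In the small subunit the brightest probe sets were those of Mrps34, Mrps17 (-0.08), Mrps6 (-0.02) and Mrps16 (0.03). Mrps15 was at -0.05, Mrps30 at 0.09 and Mrps36 at -0.10. Signals of different probe sets are not compared here as amounts of transcript.

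Probe sets of the same gene often differed. The 76 genes had 156 probe sets, of which 132 were tested; of the 33 genes with 2 or more tested, 20 had probe sets of both signs. Of the 56 tested probe sets other than the brightest, 0 passed over all genes in limma and 8 had an unadjusted p under 0.05, beside 3306 of all 22518 probe sets tested. For Mrps23 the brightest probe set was at 0.10 and another at -0.31, with signals of 402, 520.4 and 396 (noninduced) against 349.7, 308 and 389.7. These probe sets separated the groups in opposite directions. For Mrpl28 the log2 fold changes ran from 0.01 to -0.44, for Mrpl38 from 0.02 to -0.57, for Mrps10 from 0.05 to -0.49 and for Mrps9 from 0.18 to -0.30. The lowest probe sets of Mrpl38 (mean signals 59.6 and 35.1), Mrps10 (42.6 and 25.6) and Mrps9 (44.6 and 33.8) were dim. The probe sets that Mrpl30 shares with Gm6238 were at 0.10 and -0.48, and the one Mrpl53 shares with Ccdc142 at -0.01.

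Other genes of mitochondrial translation did not pass over all genes either. Mitoribosomal proteins with other names lay close to 0, with Chchd1 at 0.05, Gadd45gip1 at -0.02, Dap3 at -0.04 and Ptcd3 at -0.06 (4 tested of 7 symbols listed, 0 called). Of the listed symbols, Ict1 and Mrp63 are older names of the members Mrpl58 and Mrpl57. Of 15 tested translation factors and partners (18 listed, 0 called) 8 were positive, with a median of 0.010. Lrpprc, which stabilises mitochondrial mRNAs, had signals of 394 ± 24.0 against 473 ± 46.6 (SD, n = 3 each), without overlap (log2 0.25, limma adjusted p = 0.202), and its partner Slirp was at 0.06. Mrrf, the mitochondrial ribosome recycling factor, was at -0.21 with groups apart (limma adjusted p = 0.266). Mtfmt, which formylates the initiator tRNA, was at 0.23, Mtres1 at 0.15 and the initiation factor gene Mtif3 at -0.08.

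Of 29 tested genes of mitoribosome assembly and turnover (0 called) 14 were positive and 15 negative, with a median of -0.013. The list held 34 symbols, some of which are older names of genes already counted. Clpp, a protease of the matrix, had signals of 1032 ± 27.7 against 874 ± 58.8 (SD, n = 3 each), without overlap (log2 -0.24, limma adjusted p = 0.122). Mtg2, a GTPase of large subunit assembly, was at -0.26 without overlap. Rbfa, a small subunit assembly factor, was at 0.32, but at 0.03 in the first run, since induced replicate 1 lay within the noninduced range. Lonp1, another matrix protease, was at 0.14. Of 9 tested genes of mitochondrial DNA expression (11 symbols listed, among them an older name of Twnk, 0 called) 5 were negative, with a median of -0.017. Tfb2m, a factor that starts transcription of mitochondrial DNA, had signals of 803 ± 51.3 against 654 ± 75.1 (SD, n = 3 each), without overlap (log2 -0.29, limma adjusted p = 0.153). Mterf1a was at 0.15, Tefm at 0.14, Ssbp1 at 0.06 and the polymerase gene Polrmt at -0.08.

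Of 10 regulators of mitochondrial gene expression 9 were tested, of which 6 were positive and 0 called, with a median of 0.039. Yy1 had signals of 1181 ± 28.5 against 1308 ± 43.4 (SD, n = 3 each), without overlap (log2 0.15, limma adjusted p = 0.227). Gabpb1, a subunit of the ETS-family factor GABP, was at 0.14. Nrf1 was at -0.08, or 0.01 after median centring, and Myc at 0.07. Perm1, with mean signals of 35.5 and 23.1, was at -0.44. Ppargc1a, a coactivator of mitochondrial biogenesis, lay below the filter.

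**Figure D4:**
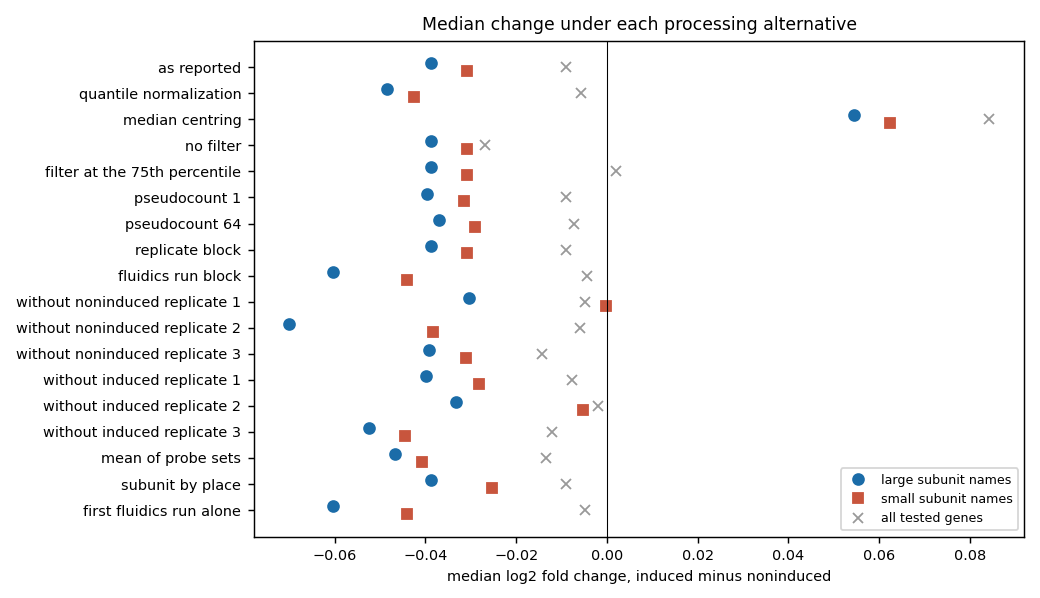
Median log2 fold change of large subunit genes (circles), small subunit genes (squares) and all genes tested (crosses) under each way of processing the data. Centring each array on its median moves all 3 to between 0.055 and 0.084; elsewhere the large subunit lies between -0.070 and -0.030.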

How the data were processed

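Total RNA of 6 samples was hybridised to 1 Affymetrix array each. The authors deposited 1 linear signal intensity per probe set and array, processed with GCOS 1.1.1 according to the submitters' processing notes; no settings or detection calls were used here. The values have a mean of 150.0 on every array after trimming 2% at each end. The fluidics runs were inferred from the hybridisation times in the deposited instrument records, with a new run set at a long gap between times. They were not read as run labels. Clock times alone were compared, so whether the arrays of a run share a day was not checked.

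After setting aside 64 control probe sets, 45037 remained: the platform annotation lists 1 gene for 34945, several for 932 and none for 9160. Of the first kind 34741 had an identifier in RefSeq's table, which changed 0 symbols. Values were taken to log2(value + 16), which understates changes of dim probe sets. The 22518 probe sets whose mean exceeded the median (signal 23.4) were tested with limma 3.58.1 in R 4.3.3 (eBayes with a variance trend, Benjamini-Hochberg over all of them, threshold 0.05), which called 45. The steps were tested on simulated data. Promoters came from RefSeq's table of GRCm38.p6, in which 67 members were found. The number of arrays limits the precision.

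Members and lists were chosen with earlier results of these data known. The rule for named genes takes members with groups apart (10 smallest p each way), the 4 highest, lowest and brightest of each subunit, the 5 with the most discordant probe sets, and Mrpl11, Mrpl12, Mrps12, Mrps15, Mrps18a, Mrps18b, Mrps18c, Mrps30 and Mrps36; from other lists the 2 highest, lowest and brightest; and Itga7. Other genes are named as members of a role, promoter pair or marker list, after their values were seen. Alternatives were other scalings, filters, pseudocounts, variance models, blocks and probe set choices, and leaving out each array.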

Additional observations from a re-analysis of the deposited data

How the results depend on the processing

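The count of all called probe sets, 45 as reported, was 306 after median centring, 102 with the filter at the 75th percentile, 74 with robust moderation, 5 with the replicate block, 2 with an unmoderated test, 1 without a filter, and 0 without a variance trend, with the fluidics run as a block or in the first run alone (chosen after seeing the data). In limma those counts of 0 stood beside 2817, 1923 and 1969 probe sets at an unadjusted p under 0.05. Leaving out 1 array gave 0 to 49: 0 without induced replicate 1 (2604 unadjusted), 11 without induced replicate 2, and 1 and 9 without noninduced replicates 2 and 3. The number of members called, 0 as reported, was 1 after median centring and 0 to 1 with 1 array left out; the gene was Mrpl33, in the latter case without induced replicate 3. Members higher at an unadjusted p under 0.05, 3 as reported, numbered 10 after median centring, 1 with the mean of probe sets, without a variance trend, with the replicate block, with the run as a block or in the first run alone, and 1 to 4 with 1 array left out (1 without noninduced replicate 2 or induced replicate 2). Members lower, 9 as reported, numbered 15 with the mean of probe sets, 3 without a variance trend, 0 after median centring and 4 to 13 with 1 array left out (4 without induced replicate 1, 5 without noninduced replicate 1 or induced replicate 2). The large subunit median, -0.04, was 0.05 after median centring and -0.07 to -0.03 with 1 array left out, lowest without noninduced replicate 2. The small subunit median, -0.03, was 0.06 after median centring and -0.04 to 0.00 with 1 array left out. Large minus small, -0.01, ranged from -0.03 to -0.01 with 1 array left out. Same-numbered arrays did not deviate together (correlations 0.012, -0.063 and -0.0088), so the replicate block rests on a shared number only.

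Of 64 named genes 41 kept 1 sign under the 19 alternatives that apply to single genes. Median centring turned Mrps17 (0.01), Nrf1 (0.01), Polrmt (0.01), Mrpl13 (0.02), Mtif3 (0.02), Mrpl12 (0.03), Mrps18c (0.03), Ptcd3 (0.04), Mrpl42 (0.05), Mrps15 (0.05), Dap3 (0.06), Gadd45gip1 (0.07) and Mrps6 (0.07). The mean of probe sets turned Mrpl47 (-0.01), Mtfmt (-0.02), Mrps9 (-0.04), Mrpl28 (-0.19), Mrps10 (-0.22), Mrpl38 (-0.25), Nrf1 (0.04), Mrps6 (0.05) and Mrpl13 (0.09). The run as a block, and the first run alone, turned Myc (-0.01), Slirp (-0.01), Ssbp1 (-0.03), Mrpl38 (-0.05), Mrpl28 (0.00 after rounding) and Polrmt (0.04). With 1 array left out the values that changed sign ranged from -0.10 to 0.00 for Mrpl42, -0.19 to 0.02 for Mtif3, -0.07 to 0.00 for Dap3, -0.04 to 0.06 for Mrpl38, -0.02 to 0.07 for Mrpl28, -0.02 to 0.09 for Mrps16, -0.04 to 0.01 for Mrps6 and -0.07 to 0.05 for Gadd45gip1. The cause of these changes was not tested.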
